A study of Mus musculus with 4 samples.

Results

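The genes described here are 10 subunits of BAF chromatin remodelling complexes, namely Smarca4, Smarca2, Smarcb1, Smarcc1, Smarcc2, Smarcd1, Smarcd2, Smarce1, Arid1a and Arid2. They were taken by gene symbol from a table of 24984 genes, and all 10 were found and had a mean of at least 1 CPM, that is, fragments per 1000000 fragments of the library. The table came from TTchem-seq, in which RNA made during a short 4-thiouridine pulse is fragmented, purified and sequenced, so that counts over exons and introns report transcriptional output rather than the amount of mature mRNA. The libraries came from CD4+CD8+ double positive (DP) thymocytes, 2 of Tox4 wild-type (WT) and 2 of Tox4 conditional knockout (cKO) mice. Both groups carried floxed Tox4 alleles (F/F), and the cKO mice carried in addition a Cre transgene under the proximal Lck promoter, which is active in developing T cells. Per the methods of the study the mice were young adult littermates on a C57BL/6 background. Nothing in the labels says that each library came from a separate mouse, so p-values measure the spread between these libraries.

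BAF complexes use the energy of ATP to slide or eject nucleosomes and so open promoters and enhancers. Each complex holds 1 catalytic ATPase (BRG1, from Smarca4, or BRM, from Smarca2) on SMARCC and SMARCD subunits, together with subunits that set its type. SMARCB1 and SMARCE1 belong to canonical BAF and PBAF and are missing from the non-canonical ncBAF complex. ARID1A is found in canonical BAF and ARID2 in the polybromo-containing PBAF form. In thymocytes these complexes are known for roles in silencing Cd4 and activating Cd8 genes, and BRG1 is required for early T cell development.

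The libraries held between 38429786 and 48690591 fragments. Of 10 DP thymocyte markers, all were at 1 CPM or more, and their summed output was 7232 and 8124 CPM in WT and 6975 and 5985 CPM in cKO, with Rag1, Cd8a and Tcf7 called lower in cKO. The 5 markers of mature single positive T cells summed to between 428 and 491 CPM, with 2 called higher and 1 lower. B cell and myeloid lists of 5 genes each summed to at most 11.4 CPM in any library, and erythroid and thymic epithelial lists to at most 1.13 CPM, with Psmb11 at 0. One library stood apart: WT replicate 1 had Xist at 172 CPM against at most 2.36 CPM elsewhere, and had the lowest value of the 4 libraries in each of 10 proliferation markers (their sum was 322 CPM, against 523 CPM in the other WT library and 617 and 509 CPM in cKO). Xist is transcribed from the inactive X chromosome of female cells, so by this gene the source of WT replicate 1 differs in sex from that of the other WT library and of both cKO libraries, although the methods describe mice matched for sex. The part of sex in the differences between genotypes was not tested, and the log2 changes of the 10 genes without this library are given after those with all 4. The deleted gene, Tox4, was at 74.0 and 70.3 CPM in WT and at 59.3 and 57.2 CPM in cKO, a fitted log2 change of -0.31 (SE 0.10). Its adjusted p-value was 0.0453 by DESeq2, and 0.153 by edgeR and 0.143 by limma voom, and with DESeq2 the call was lost in several other settings, including each fit with 1 library left out (adjusted p-values 0.196 to 0.792), while the log2 change stayed between -0.34 and -0.28. This count covers the whole locus and not only the floxed exons. For Tox4 protein, the study reported efficient deletion by Western blot in unsorted and sorted thymocytes. In such bulk libraries fewer cells of a type and less RNA made per cell cannot be told apart.

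None of the 10 genes passed the test between WT and cKO, and the differences measured were small. A gene was called when its adjusted p-value by DESeq2 was under 0.05, it differed by 1.2-fold or more and its output averaged 1 CPM or more. Among all 11625 genes at or above 1 CPM, 431 (3.71%) were called, 2.14% higher and 1.57% lower in cKO, so that a count of 0 of 10 does not set the members apart. The edgeR quasi-likelihood test and limma voom also called 0 of the 10, and called 0.499% and 0.525% of all genes. At an unadjusted p-value under 0.05 each of the 3 tools gave 2 genes, Arid1a and Smarcd2, against 13.5% of all genes with DESeq2, 15.6% with edgeR and 15.8% with limma voom. Log2 fold changes (cKO over WT) ran from -0.18 to 0.19, with a median of 0.03, beside a median of 0.00 over all genes. Their median size without sign was 0.08, against 0.13 over all genes. Summed over the 10 genes, the share of all fragments was 0.335% and 0.331% in WT and 0.342% in each cKO library. Without Arid1a it was 0.271% and 0.264% in WT and 0.267% and 0.269% in cKO, and the genotypes overlapped.

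**Figure D1:**
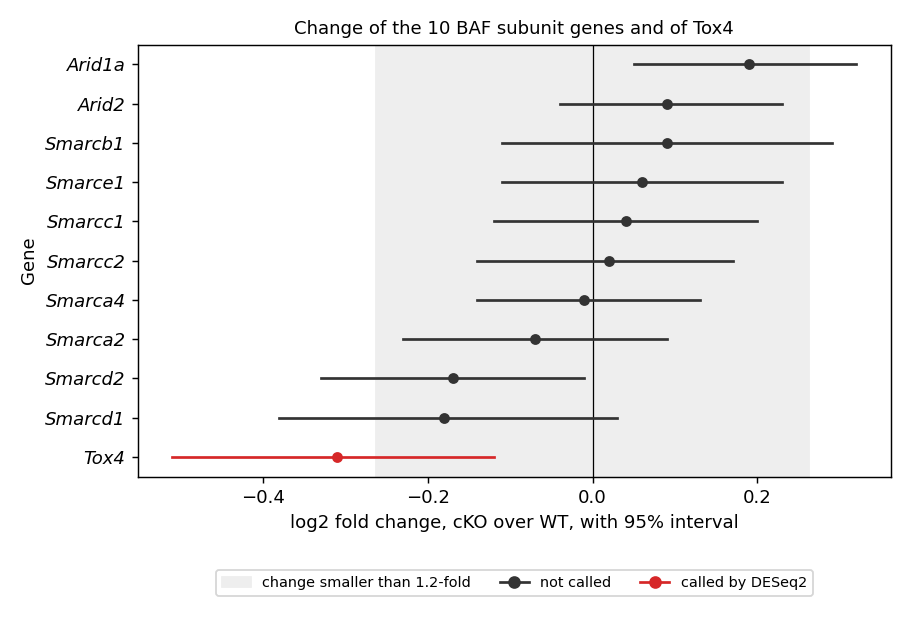
Log2 fold change of output in cKO over WT (points) with 95% intervals (lines) for the 10 BAF subunit genes and Tox4, from DESeq2 on 2 WT and 2 cKO libraries. The grey band marks changes below 1.2-fold. None of the 10 was called, and the intervals of 6 lie inside the band.

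Under the DESeq2 model, which draws the error of a gene partly from other genes, the width of the intervals says how large a change is allowed. The 95% interval of the log2 change lay wholly within a 1.2-fold change (0.26 on the log2 scale) for 6 genes, Smarca4, Smarca2, Smarcc1, Smarcc2, Smarce1 and Arid2, which is 60.0% of the members against 17.5% of all genes. The members had many fragments, from 2303 for Smarcb1 in cKO replicate 1 to 42516 for Smarca4 in WT replicate 2, and counting error alone was at most 2.08% of a value. Standard errors of the 10 genes ran from 0.068 to 0.10, against a median of 0.148 over all genes. For Arid1a, Smarcb1, Smarcd1 and Smarcd2 the interval reached beyond 1.2-fold on the side of the estimate, so a change of that size is not excluded for these genes.

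Of the catalytic subunits, Smarca4 (GRCm38 chromosome 9, 21616169 to 21704230, plus strand) encodes BRG1, the main ATPase of BAF complexes in many tissues. Its output was 903 and 873 CPM in WT and 874 and 898 CPM in cKO, so the groups overlapped fully. The means were 888 ± 20.9 and 886 ± 16.4 CPM (SD, n = 2), the fitted log2 change was -0.01 (95% interval -0.14 to 0.13) and the DESeq2 adjusted p-value was 0.987. Its standard error, 0.068, was the lowest among the members.

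Smarca2 (chromosome 19, 26605160 to 26778321, plus strand) encodes BRM, the alternative ATPase. It was at 472 and 432 CPM in WT and at 456 and 405 CPM in cKO, with a lower and a higher library in each genotype. Its log2 change of -0.07 (interval -0.23 to 0.09, DESeq2 adjusted p-value 0.793) was smaller than the log2 difference of -0.13 between the WT libraries and of -0.17 between the cKO libraries. The locus has 3 listed transcripts from 3 start sites, 2 of which lie 143005 and 143243 bp inside the gene, and their outputs are pooled in this count.

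Among the core subunits, Smarcb1 (chromosome 10, 75896769 to 75921614, minus strand), which encodes the SNF5 subunit, had the lowest total signal of the 10. It was counted at 56.5 and 57.5 CPM in WT and at 59.9 and 61.3 CPM in cKO. Each cKO value exceeded each WT value, but the log2 difference was 0.09 (interval -0.11 to 0.29, DESeq2 adjusted p-value 0.807).

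SMARCC1 and SMARCC2 form the scaffold on which a complex is assembled. Smarcc1 (chromosome 9, 110132024 to 110240178, plus strand) had 234 and 224 CPM in WT and 228 and 244 CPM in cKO. Smarcc2 (chromosome 10, 128459236 to 128490174, plus strand) had 156 and 158 CPM in WT and 161 and 158 CPM in cKO. In both genes the genotypes overlapped, and the log2 changes were 0.04 (interval -0.12 to 0.20) for Smarcc1 and 0.02 (interval -0.14 to 0.17) for Smarcc2, with DESeq2 adjusted p-values of 0.897 and 0.962.

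Smarce1 (chromosome 11, 99209048 to 99231017, minus strand) encodes BAF57, a subunit with an HMG box, the DNA-binding fold that also gives TOX proteins their name. It was at 124 and 119.7 CPM in WT and at 124 and 131 CPM in cKO. The cKO libraries were barely above the WT libraries on the CPM scale and overlapped them in DESeq2 normalised counts. The log2 change was 0.06 (interval -0.11 to 0.23, DESeq2 adjusted p-value 0.841).

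The SMARCD subunits, which connect the complexes to transcription factors, had the lowest log2 changes. Smarcd2 (chromosome 11, 106263171 to 106272972, minus strand) was at 148 and 143 CPM in WT and at 127 and 132 CPM in cKO. The cKO libraries lay below the WT libraries, and the means were 146 ± 3.17 and 129.8 ± 3.55 CPM (SD, n = 2). The log2 change was -0.17 (SE 0.083, interval -0.33 to -0.01), with an unadjusted p-value of 0.0421 that became 0.323 after DESeq2 adjustment over all genes. Smarcd1 (chromosome 15, 99702287 to 99713995, plus strand) was at 101 and 100.4 CPM in WT and at 81.8 and 96.6 CPM in cKO. Its WT libraries were almost identical, while the cKO libraries differed by 0.24 on the log2 scale, the largest gap within a genotype among the members. The log2 change was -0.18 (interval -0.38 to 0.03, DESeq2 adjusted p-value 0.479), and it became -0.05 when cKO replicate 1 was left out and -0.31 when cKO replicate 2 was.

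The ARID subunits define the type of complex, and both were counted higher in cKO without passing the test. Arid1a (chromosome 4, 133679008 to 133756769, minus strand) was at 636 and 668 CPM in WT and at 756 and 730.0 CPM in cKO. Both cKO libraries exceeded both WT libraries, with means of 652 ± 22.7 and 743 ± 18.2 CPM (SD, n = 2), a ratio of 1.14. The log2 change of 0.19 (SE 0.071, interval 0.05 to 0.32) was the highest among the members, with an unadjusted p-value of 0.00851 and a DESeq2 adjusted p-value of 0.126. With edgeR and limma voom the adjusted p-values were 0.254 and 0.221. Arid2 (chromosome 15, 96287522 to 96405463, plus strand) was at 518 and 532 CPM in WT and at 556 and 567 CPM in cKO, also without overlap, with a log2 change of 0.09 (interval -0.04 to 0.23) and a DESeq2 adjusted p-value of 0.607.

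Counting separation alone, both cKO libraries were above both WT libraries for 4 of the 10 genes (Smarcb1, Smarce1, Arid1a and Arid2) and below them for 2 (Smarcd1 and Smarcd2). The same held for 24.9% and 24.0% of all genes, so separation of this kind was common in these libraries. Since WT replicate 1 stood apart in Xist and in proliferation markers, the changes were also fitted without it. The log2 changes were then 0.14 for Arid1a, -0.16 for Smarcd2 and -0.18 for Smarcd1. For the core subunits they were 0.07 for Smarcb1, 0.06 for Smarcc1, 0.00 for Smarcc2 and 0.08 for Smarce1. For the ATPases they were 0.01 for Smarca4 and -0.02 for Smarca2, and for Arid2 the value was 0.07. None of the 10 genes was called in this fit. The summed output of the members was 3348 and 3309 CPM in WT and 3425 and 3423 CPM in cKO. The part of cell division or sex in these differences was not tested.

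The promoters of the 3 genes with the largest differences in value are printed here, since the cKO libraries lay below WT for both SMARCD genes and above WT for Arid1a. Each is the 250 bases before a RefSeq transcription start that the deposited table also lists, in build GRCm38.p6, printed 5′ to 3′ on the strand of the gene. Capitals mark matches to the GC box GGGCGG (bound by SP1-type factors) or to the TATA box TATAAA, on either strand. The windows are chr4:133756770-133757019 (minus) for Arid1a, chr15:99702037-99702286 (plus) for Smarcd1 and chr11:106267633-106267882 (minus) for Smarcd2, the last at the inner of the listed start sites.
Arid1a: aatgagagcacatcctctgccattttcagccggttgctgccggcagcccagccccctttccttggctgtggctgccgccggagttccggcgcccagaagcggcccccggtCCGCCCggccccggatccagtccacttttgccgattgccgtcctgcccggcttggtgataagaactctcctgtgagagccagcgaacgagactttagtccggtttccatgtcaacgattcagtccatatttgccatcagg
Smarcd1: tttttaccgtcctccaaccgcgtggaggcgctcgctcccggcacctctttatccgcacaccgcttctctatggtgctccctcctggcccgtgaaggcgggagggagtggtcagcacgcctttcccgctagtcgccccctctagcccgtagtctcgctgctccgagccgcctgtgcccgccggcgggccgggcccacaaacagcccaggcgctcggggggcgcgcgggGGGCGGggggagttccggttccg
Smarcd2: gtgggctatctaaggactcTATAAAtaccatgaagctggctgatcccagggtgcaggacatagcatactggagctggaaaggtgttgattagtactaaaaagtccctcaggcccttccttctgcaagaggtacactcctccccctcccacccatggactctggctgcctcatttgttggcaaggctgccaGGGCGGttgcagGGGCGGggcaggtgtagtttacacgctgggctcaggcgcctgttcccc

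Sequence features of these windows differed between the SMARCD genes. For Smarcd2 the window is at the inner start, 5340 bp inside the gene, and none was at hand for its outermost start. The contrast therefore covers these windows only. The Smarcd1 window was 71.2% G and C with 29 CpG dinucleotides, and the Smarcd2 window 56.4% with 4 CpG and the single TATA box found among the members. The Arid1a window was 61.2% G and C with 18 CpG. A second RefSeq window of Arid1a, at a start that the deposited table does not list, was 81.6% with 33 CpG and 7 GC boxes. Over 32851 RefSeq promoter windows of the same length the medians were 52.4% and 6 CpG, and 32.7% held a GC box and 12.4% a TATA box. Windows were at hand for 8 members. A window at a start site of the deposited table held a GC box in 7 of these 8, and Smarcc2 held none. The ETS core CCGGAAG was found in Smarcc1 and Smarca2 and in 6.91% of all windows. The CCAAT box CCAAT (33.8% of all windows) and the YY1 core AAGATGGCG (0.606%) were searched on both strands and had no match in the members. A match describes letters and not a bound site.

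Levels between genes can be compared only per length, and the order changed on that scale. In CPM per kb of gene span the order was Smarcd2 (14.1), Smarca4 (10.1), Arid1a (8.97), Smarcd1 (8.10), Smarce1 (5.68), Smarcc2 (5.13), Arid2 (4.61), Smarca2 (2.55), Smarcb1 (2.37) and Smarcc1 (2.15). Every neighbouring pair in this order was separated over the 4 libraries except 2. Arid1a (8.18 to 9.72 CPM per kb) overlapped Smarcd1 (6.98 to 8.61), and Smarca2 (2.34 to 2.72) overlapped Smarcb1 (2.27 to 2.47). All 10 genes were well transcribed for DP cells, from the 62.2 percentile (Smarcc1) to the 96.2 percentile (Smarcd2) of genes at 1 CPM or more, on the scale of CPM per kb.

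**Figure D2:**
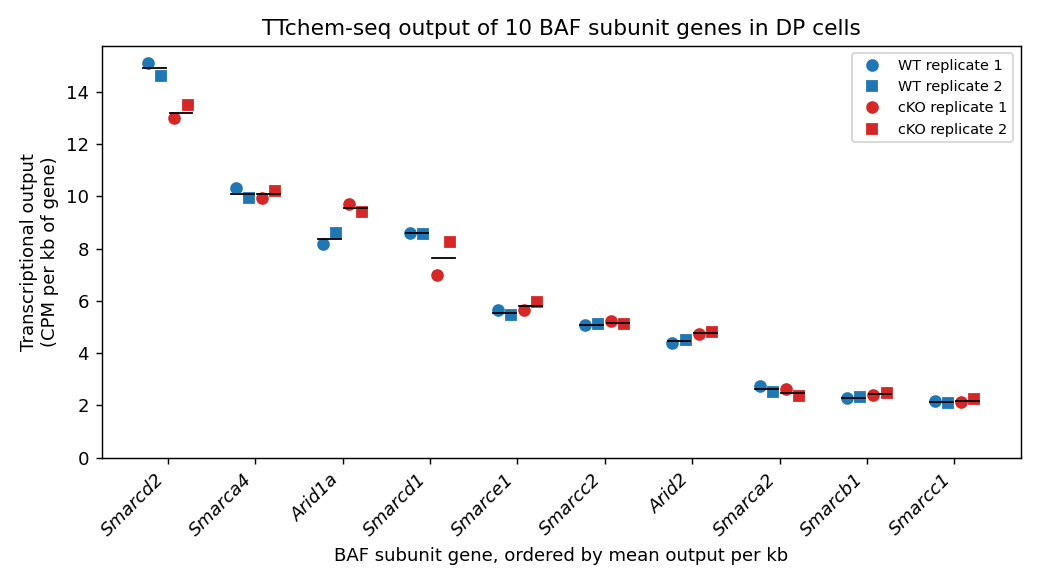
Output per kb of gene span (CPM per kb) of the 10 BAF subunit genes in each of the 4 libraries, WT in blue and cKO in red, with circles for replicate 1, squares for replicate 2 and lines at the genotype means. Smarcd2 is highest at 13 to 15.1 and Smarcc1 lowest at 2.07 to 2.26, and genotypes separate without overlap most visibly in Smarcd2, Arid1a and Smarcd1.

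These spans were mostly intronic. In curated RefSeq transcripts exons made up between 3.62% (Smarca2, up to 33 exons) and 29.3% (Smarcd2, up to 13 exons) of the counted span. Overlap with other listed genes was slight. Mir7227 shares 59 bp and the strand of Arid1a, and 4931403E22Rik, at 0.0239 CPM, lies on the other strand over 5.50% of Smarca2.

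The ratio between related subunit genes within a library does not depend on the scaling of that library. Not every pair taken here is a choice between alternatives, since ARID1A and ARID2 belong to different complex types. Smarca4 exceeded Smarca2 per kb by a log2 ratio of 1.91 and 1.99 in WT and 1.92 and 2.12 in cKO, or 3.96-fold over the 4 libraries. This fold divides by the whole Smarca2 span, although 2 of its 3 listed transcripts start deep inside it, and it was 2.01-fold in CPM not divided by length. Smarcc2 exceeded Smarcc1, with log2 ratios (Smarcc1 over Smarcc2) of -1.22 and -1.31 in WT and -1.31 and -1.18 in cKO, or 2.38-fold. Smarcd2 exceeded Smarcd1, at -0.81 and -0.77 in WT and -0.89 and -0.71 in cKO, or 1.74-fold. Arid1a exceeded Arid2, at 0.90 and 0.93 in WT and 1.04 and 0.97 in cKO, or 1.94-fold. The direction of each pair was thus the same in every library.

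Differences of these ratios between genotypes were small beside the ratios themselves. The difference of the mean log2 ratios, cKO minus WT, was 0.07 for the ATPases, 0.02 for the SMARCC pair, -0.01 for the SMARCD pair and 0.09 for the ARID pair. Two-sided exact permutation p-values over libraries were 0.667, 0.667, 1 and 0.333, where 2 against 2 libraries cannot give less than 0.333. With 1 library left out, the difference ran from -0.04 (without cKO replicate 2) to 0.17 (without cKO replicate 1) for the ATPases, from -0.04 to 0.08 for the SMARCC pair and from -0.10 to 0.08 for the SMARCD pair, each time with the same libraries left out, so these 3 differences had no settled sign. For the ARID pair it ran from 0.05 to 0.13. The ARID pair was the only one of the 4 whose genotypes did not overlap. Any pair without overlap gets the permutation p-value of 0.333 here, so this does not set the ARID pair apart. Among all single genes, 24.9% lay higher and 24.0% lower in both cKO libraries than in both WT libraries. On the scale of CPM not divided by length, Smarcc1 was above Smarcc2 by a log2 ratio of 0.55, because its span is longer, so the order of that pair holds per kb only.

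**Figure D3:**
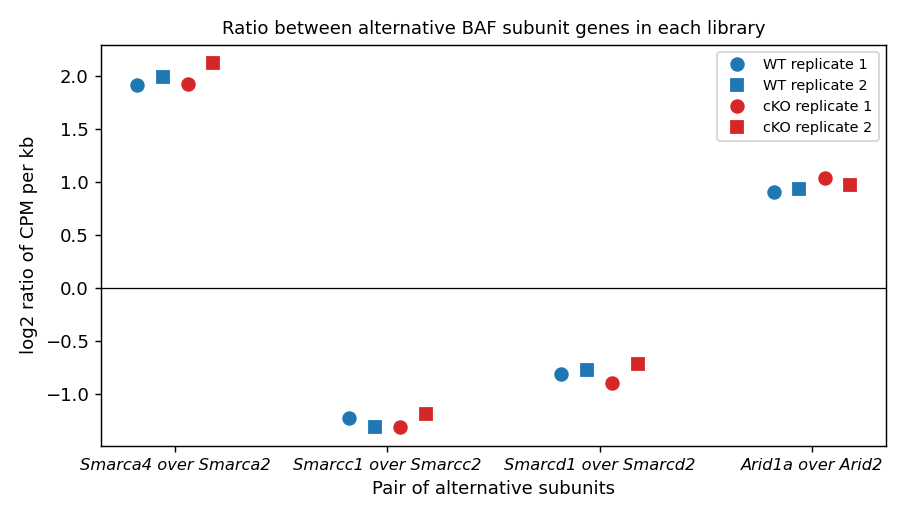
Log2 ratio of CPM per kb between paired BAF subunit genes in each library, WT in blue and cKO in red, circles for replicate 1 and squares for replicate 2. Points above 0 mean that the first gene of the pair was higher. Ratios run from -1.31 to 2.12, and only Arid1a over Arid2 has no overlap between genotypes, for which the exact permutation p-value over libraries is 0.333.

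Of the other genes of BAF, PBAF and the non-canonical ncBAF complex, 21 were in the table and 19 averaged 1 CPM or more. DESeq2 called 1 of them, lower in cKO, and not the other 18, with a median log2 change of 0.02, where 3.71% of all genes were called. At an unadjusted p-value under 0.05 it gave 5 genes, Bcl7a, Bcl11b and Ss18 with higher values and Bicra and Actb with lower values in cKO, of which Bcl7a, Ss18 and Bicra are named after their values were seen. The same threshold gave 13.5% of all genes. The called gene was Actb, which encodes β-actin, a BAF subunit and at the same time a main part of the cytoskeleton. Actb (chromosome 5, 142903115 to 142906754) was at 855 and 934 CPM in WT and at 703 and 673 CPM in cKO. The genotypes did not overlap, and the fitted log2 change was -0.38 (SE 0.075), for which DESeq2 gave an adjusted p-value of 4.99e-05. With edgeR and limma voom the adjusted p-values were 0.0892 and 0.0614, and these tools called 0 of the 19 genes, with 4 and 5 at an unadjusted p-value under 0.05, a threshold passed by 15.6% and 15.8% of all genes. With DESeq2 the call was kept without WT replicate 1 (log2 change -0.45) and without WT replicate 2 (-0.31), and lost without cKO replicate 1 (log2 change -0.40, adjusted p-value 0.0507) and without cKO replicate 2 (log2 change -0.36, adjusted p-value 0.157).

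**Figure D4:**
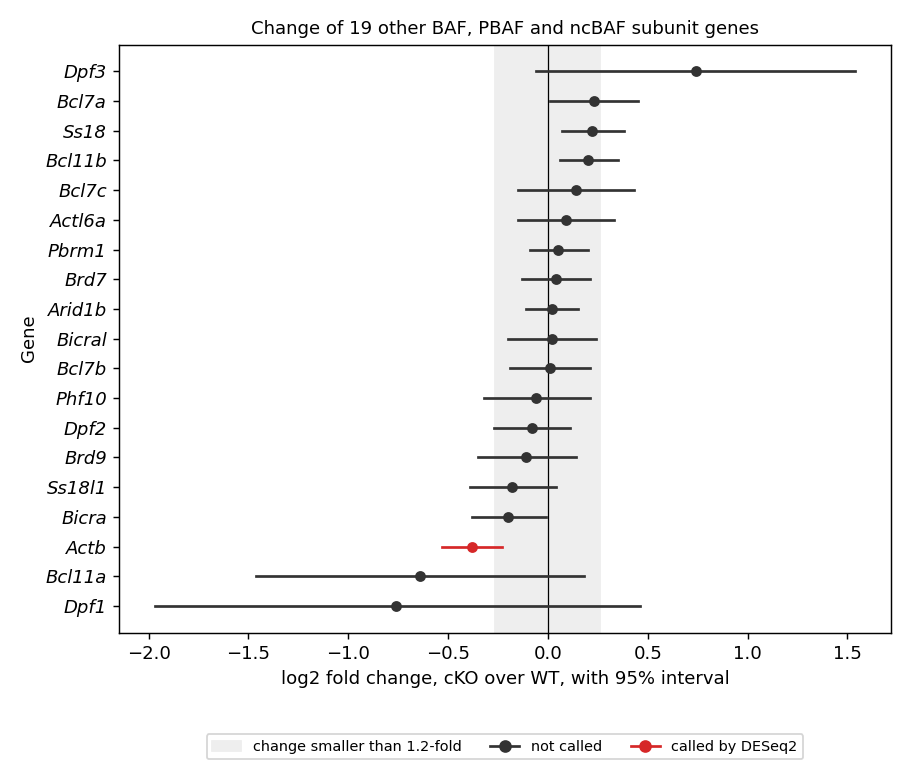
Log2 fold change in cKO over WT (points) with 95% intervals (lines) for 19 other BAF, PBAF and ncBAF subunit genes at 1 CPM or more on average, from DESeq2 on 2 WT and 2 cKO libraries, with the grey band marking changes below 1.2-fold. Actb, in red, is the only gene called, at -0.38, and the widest intervals belong to Dpf1, Dpf3 and Bcl11a.

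Named whatever their values, 4 partners of the members follow. Arid1b, the alternative to Arid1a, had 1658 and 1604 CPM in WT and 1656 and 1657 CPM in cKO, and its log2 change of 0.02 (SE 0.066, DESeq2 adjusted p-value 0.947) left the genotypes overlapping. Pbrm1, the polybromo subunit that joins ARID2 in PBAF, was at 245 and 252 CPM in WT and at 259.9 and 256 CPM in cKO (log2 change 0.05, DESeq2 adjusted p-value 0.850). Bcl11b, a T cell transcription factor found with BAF complexes in lymphocytes, was at 2818 and 2962 CPM in WT and 3494 and 3178 CPM in cKO. Both cKO libraries were higher, by 0.20 on the log2 scale, with a DESeq2 adjusted p-value of 0.0955, and by 0.16 without WT replicate 1 (DESeq2 adjusted p-value 0.759). Smarcd3, the third SMARCD gene, was nearly silent, with at most 0.13 CPM in any library.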

How the data were processed

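TTchem-seq libraries of DP cells (2 WT, 2 cKO, grouped by sample title) were analysed from the deposited table of expected counts, fragments per gene over whole transcript spans, which the authors made from reads filtered with fastp 0.13.1 and aligned with STAR 2.7.9a to GRCm38 (mm10); featureCounts 1.6.1 is also named in the submitters' processing notes. Of the deposited values 8.61% were fractional, and how fractions were assigned is not given in the sources used here. The deposited gene length, in bp, was the other column used. The methods describe yeast spike-in RNA, which was not used for scaling there or here. No molecular identifiers were described, so counting errors cover counting only.

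Counts were rounded and tested over the whole table with the DESeq2 1.42.0 Wald test (default size factors, independent filtering target 0.1, Benjamini-Hochberg adjustment), following the methods of the study. CPM used table totals. The 95% intervals of log2 changes use the normal approximation. Alternatives were edgeR 4.0.16, limma 3.58.1 (voom), TMM and total count factors, other filters, removal of a gene length trend, a replicate block and each library left out, and, added after the data were seen, the table without Rn45s. R 4.3.3 and Python 3.11.15 were used, and the fits were tested on simulated data. Promoters came from RefSeq (GRCm38.p6), matched by symbol for 8 of 10 genes. Named genes were all members, Tox4, Arid1b, Smarcd3, Pbrm1, Bcl11b and any other subunit called. The members, lists and tests were chosen with earlier results of these data known.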

Additional observations from a re-analysis of the deposited data

How the results depend on the processing

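None of the 10 members was called with any of the 13 alternatives run, although the number of calls over all genes went from 431 to 58 with edgeR, 61 with limma voom, 193 with the replicate block and between 89 and 446 with 1 library left out. In the fits without 1 library a genotype held a single library, which is assumed to vary like the other group. The lowest adjusted p-value of any member was 0.112, for Arid1a when a CPM of at least 1 was required in every library. Unadjusted DESeq2 p-values under 0.05, found for 2 members in the main fit, were found for 1 with the length trend removed. With the replicate block they were found for 0. The sign of the log2 change turned for Smarca4, Smarca2 and Smarcc1 in 1 or 2 alternatives each, all with changes close to 0, and was kept for the other members. The median log2 change of the members, 0.03, was 0.00 with the length trend removed, and between 0.01 and 0.06 with 1 library left out. The cause was not tested.

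For the other subunits 1 call became 0 with edgeR and 0 with limma voom, and between 0 and 2 with 1 library left out, the second call being Bcl7a without WT replicate 2. Without division by length the mean log2 ratios of the subunit pairs, 1.98, -1.25, -0.80 and 0.96, became 1.01, 0.55, -0.54 and 0.36, by construction, since the spans differ. The main fit treated same-numbered libraries as unpaired. The correlation of their deviations was -0.03 over 11625 genes, which cannot show whether they were prepared or matched together. The share of fragments at Rn45s followed the replicate number, at 2.71% and 4.3% in WT and 2.44% and 4.05% in cKO. With the replicate block 0 members and 1 other subunit were called, and Tox4 had a log2 change of -0.31 with a DESeq2 adjusted p-value of 0.361. Tox4 kept its direction in every alternative and lost its call in 10 of them, with changes from -0.34 to -0.28.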

Other observations

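Genes for ATPases of other remodelling families were listed after the data were seen and set beside the BAF genes. Of 21 such genes (ISWI, CHD, INO80 and related SNF2 proteins), 20 had a mean CPM of at least 1, and their median log2 change was 0.05. The gene called was Hells, an SNF2 helicase needed for DNA methylation and abundant in dividing cells, and the other 19 were not called, where 3.71% of all genes were. Hells was at 10.3 and 15.4 CPM in WT and at 19.2 and 21.8 CPM in cKO, a fitted log2 change of 0.67 (SE 0.20). Its adjusted p-value was 0.0296 by DESeq2, 0.215 by edgeR and 0.197 by limma voom, and the call was also lost with no low-count filter (log2 change 0.67), with the replicate block (0.70), without cKO replicate 1 (0.77) and without cKO replicate 2 (0.57). Without WT replicate 1, the library lowest in all 10 proliferation markers, the change was 0.40 with a DESeq2 adjusted p-value of 0.816, and without WT replicate 2 it was 1.0 with a DESeq2 adjusted p-value of 0.00272 and stayed called. The part of cell division in this result was not tested. Chd4, the NuRD ATPase, was at 248 and 263 CPM in WT and at 246 and 231 CPM in cKO (log2 change -0.10, DESeq2 adjusted p-value 0.647), and Smarca5, the ISWI ATPase, at 70.5 and 64.4 CPM in WT and at 67.4 and 73.1 CPM in cKO (0.06, 0.888).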
